A study of Homo sapiens with 9 samples.

Results

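Reads on 9 mRNAs that laboratories use as internal references (ACTB, ACTG1, GAPDH, EEF1A1, PPIA, TBP, HPRT1, YWHAZ and TPT1) were followed across 7 libraries, out of 26625 genes with a row in the count tables. The 9 were chosen by name, as common normalisers of PCR and RNA-seq data, and each was represented by its RefSeq transcript with most reads. The study made sequencing libraries from cultured human cell lines by CLT-seq, in which total RNA is reverse transcribed from an adaptor-flanked oligo(dT) primer and the cDNA end is then ligated to a second adaptor. HEK293T, a transformed embryonic kidney line, was sampled with 6 primers, and A549, a lung carcinoma line, with the T12 primer. Both lines are labelled WT for genotype, and no treatment is named for either. HEK293T was grown in high-glucose DMEM and A549 in F-12K, both with serum, so cell line and medium cannot be told apart. T12, T18 and T30 are unanchored primers that end in a plain run of T, whereas T18V, T18VN and T18VNN are anchored, with 1 to 3 further bases after 18 T. Each primer had 1 library with gene counts: biological replicate 1 for HEK293T T12, biological replicate 2 for A549 T12, and a single unnumbered library for every other primer. The p-values below therefore measure the spread between libraries made with different primers of a class, not between cultures.

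A reference mRNA is meant to keep a constant share of the RNA while other genes move, so that dividing by it removes differences in input. The 9 serve unrelated parts of the cell: ACTB and ACTG1 are the cytoplasmic actins, EEF1A1 delivers aminoacyl-tRNA to the ribosome, and TPT1 is the translationally controlled tumor protein, whose mRNA carries a 5′ terminal oligopyrimidine tract. GAPDH and HPRT1 are enzymes of glycolysis and purine salvage, PPIA (cyclophilin A) is a prolyl isomerase, YWHAZ is a 14-3-3 adaptor and TBP is the TATA-binding protein of the general transcription machinery. An oligo(dT) primer can anneal anywhere along a poly(A) tail, or within an internal run of A, and a non-T base at its 3′ end favours the junction between tail and transcript body.

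The primers are shown because they are the variable that differs between the HEK293T libraries. They share 1 adaptor, in lower case, and the capitals mark the run of T. In the anchors, V stands for any base other than T and N for any base.
T12: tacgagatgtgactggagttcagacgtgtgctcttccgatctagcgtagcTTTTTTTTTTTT
T18: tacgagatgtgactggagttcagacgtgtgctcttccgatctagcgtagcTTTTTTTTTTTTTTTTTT
T18V is the T18 sequence with 1 base V added at its 3′ end, T18VN adds VN and T18VNN adds VNN, so T18 and T18V differ by the last base alone. T30 carries 30 T on the same adaptor. The study's text writes the name of the primer with 18 T and VN as T12VN, while the sample title has T18VN.

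The sequence that such a primer meets is the end of the transcript before the tail. The last 30 bases of 4 members, read from GENCODE release 29 transcripts whose length lay closest to a RefSeq entry of the gene, are shown because they include both actins and the 2 members whose read ratio varied least. Capitals mark AATAAA, the hexamer that signals polyadenylation.
ACTB: gttgAATAAAagtgcacaccttaaaaatga
ACTG1: aaggaaaAATAAAagtgctgccgtaaccaa
PPIA: tggaAATAAAcatcaaacatcttttcatta
HPRT1: atgcaaatcAATAAAttcccaaaaatttaa
The hexamer was followed by 20 bases in ACTB, 17 in ACTG1, 20 in PPIA and 15 in HPRT1. Searched on the transcript strand, it stood in the last 30 bases of 6 of the 9 members and in 30.6% of 83129 protein-coding GENCODE transcripts. The members' transcripts were picked by their match to a RefSeq entry and the 83129 were not. The sets are therefore unlike, and enrichment of the hexamer was not tested. No member's transcript held a run of 8 or more A, and the longest runs were 5 to 7 bases, shorter than the 12 to 30 T of the primers. The transcripts searched are not always those counted. For ACTG1, GAPDH, PPIA and YWHAZ they match another RefSeq entry. In length, that of EEF1A1 differs by 929 bases and that of GAPDH by 131 from the RefSeq entry matched.

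Library totals were 7491993 to 25578543 reads in HEK293T and 11127940 in A549, and reads on genes were 2215948 to 5200792 and 1498188. The share of a library that fell on genes was 11.7 to 20.3% with unanchored primers and 27.7 to 37.5% with anchored primers in HEK293T, and 13.5% in A549. Levels are given as CPM, the count of a gene after each library was scaled to the same standard number of reads on genes. The labelled cell lines were checked with markers: 7 of 7 A549 markers were at least 2-fold higher in A549, where they summed to 15266 CPM against 10.3 to 28.6 in HEK293T. The 4 HEK293T markers summed to 1.33 CPM in A549 against 3400 to 4922 in HEK293T, and NEFM, NEFL and LIN28B had 0 reads in A549. Leukocyte markers summed to 42.1 CPM in A549 and 0 to 1.78 in HEK293T, with PTPRC and CD3E at 0 reads in A549. Fibroblast markers summed to 38.05 and 8.88 to 31.7 CPM, with COL1A2, COL3A1 and DCN at 0 reads in A549. Endothelial markers had no reads in A549 and summed to at most 0.278 CPM in HEK293T. The part of such other cells in the members' levels was not tested.

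Only FPKM, which the authors divided by transcript length and library total, allows levels of different genes to be set side by side. The length is that of the row kept, and rows tied for most reads in ACTG1 (2), GAPDH (2), TBP (2) and YWHAZ (6). For TPT1 the row kept has 4814 bases, and the least read of its 3 rows held 99.8% as many reads. For PPIA this share was 99.99%. The FPKM of these genes, and their place in the order, therefore rest partly on the row kept. Over the 6 HEK293T libraries, median FPKM ran from 423 for ACTG1 (79.8 to 833) and 363 for PPIA (177 to 698) to 8.46 for ACTB (5.21 to 22.9) and 1.79 for TBP (0.557 to 3.98). Between these lay GAPDH at 110 (66.3 to 218), EEF1A1 at 103 (35.3 to 227), TPT1 at 42.04 (15.6 to 107), YWHAZ at 29.5 (9.67 to 84.3) and HPRT1 at 11.1 (5.10 to 18.4). Neighbours in this order overlapped in range over the 6 libraries, except ACTB and TBP. These ranges also hold the differences between libraries in the share of reads on genes, which are absent within a library. Within each of the 6, PPIA was above GAPDH, EEF1A1 above TPT1, YWHAZ above HPRT1 and ACTB above TBP. GAPDH and EEF1A1, TPT1 and YWHAZ, and HPRT1 and ACTB changed places between primers, and so did the 2 highest members. PPIA had the higher FPKM with T12 (336 against 108 for ACTG1) and T18VN (698 against 670), and ACTG1 with T18V (833 against 564) and T18VNN (787 against 389). In A549 the order was ACTG1 at 490 FPKM, GAPDH at 177, PPIA at 127, EEF1A1 at 94.01, TPT1 at 50.9, ACTB at 37.5, YWHAZ at 18.2, HPRT1 at 1.97 and TBP at 0.158. FPKM assumes reads spread along the transcript, whereas 59.2 to 64.7% of gene body coverage fell in the last 20 of 100 percentiles with T12, T18, T30 and T18V and 39.9% with T18VNN (the coverage of the T18VN library was not used here), so levels between genes of unequal length are approximate.

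**Figure D1:**
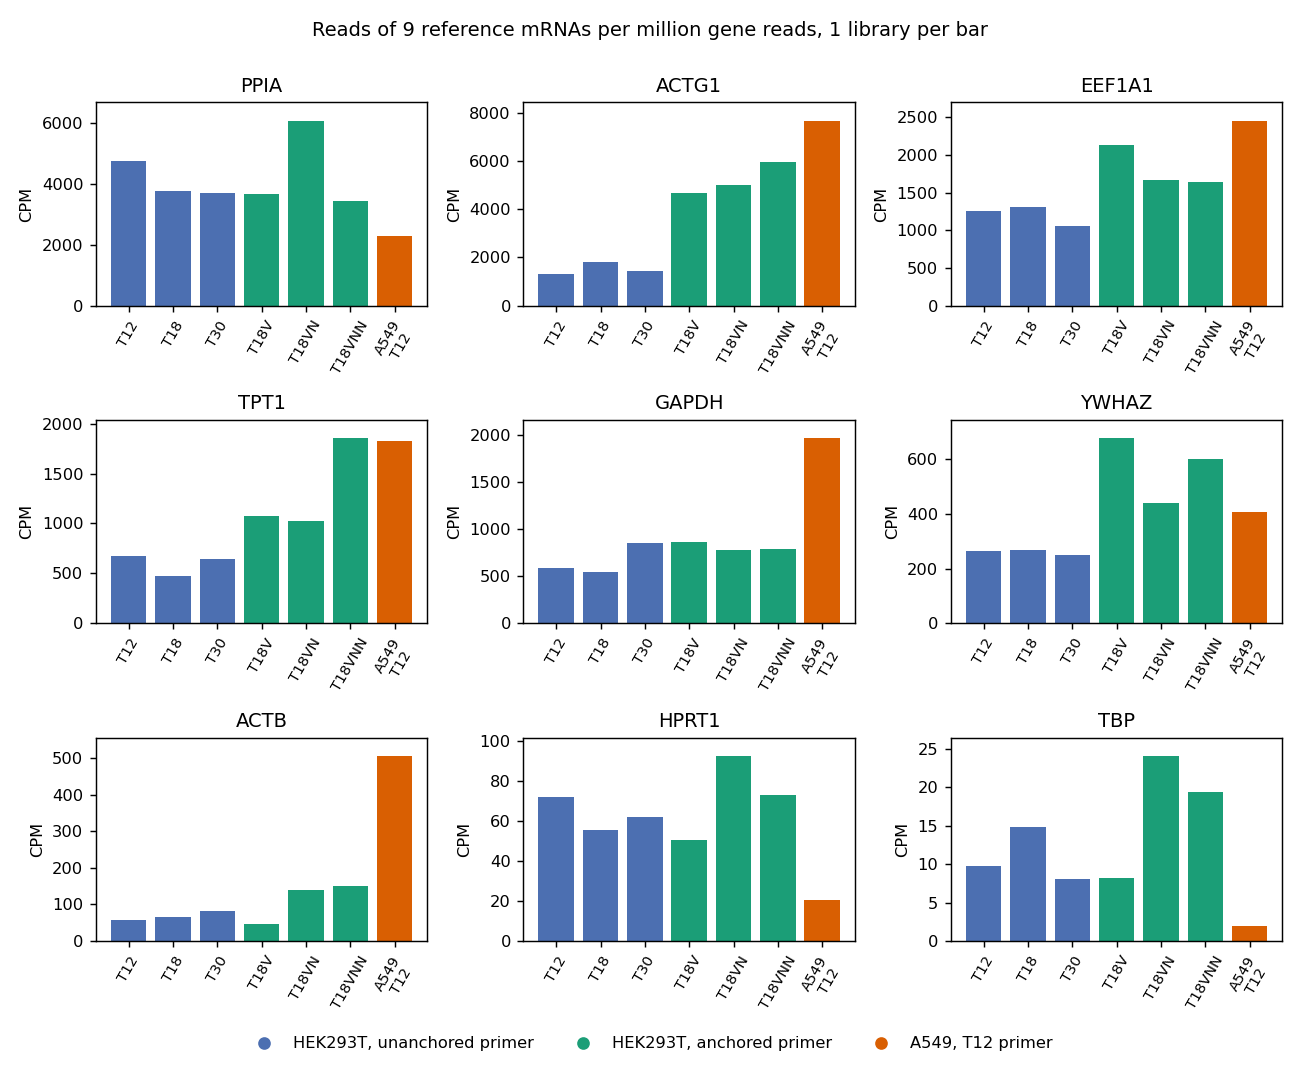
CPM (counts scaled to equal totals of reads on genes) of the 9 reference mRNAs in each of the 7 libraries, 1 panel per gene, with 1 bar per library drawn from 0 and no error bars because each primer had 1 library. ACTG1 stood at 1322 to 1830 CPM in the unanchored and 4672 to 5969 CPM in the anchored HEK293T libraries, while ACTB stood at 45.9 to 149 CPM in HEK293T and 505 CPM in A549.

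The first comparison asked how much each reference moved when the same cell line was read with another oligo(dT) primer. GAPDH, PPIA and HPRT1 stayed within 2-fold over the 6 HEK293T libraries, whereas ACTB, ACTG1, YWHAZ, TPT1, TBP and, at 2.002-fold, EEF1A1 did not. The count depends on scaling: with TMM-scaled CPM, RLE or the longest transcript row, 4 members stayed within 2-fold. All 9 members passed the filter on low counts. Staying within 2-fold was shared by 14% of the 10887 genes tested and by 34.4% of the 1805 genes with a mean of at least 100 CPM, so 3 of 9 members is near the share among abundant genes. The median SD of log2(CPM + 1) over the 6 libraries was 0.62 for the members, 0.66 for all genes tested and 0.47 for the abundant genes. The members' median thus lay between those of all tested and of abundant genes.

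ACTG1, the gamma cytoplasmic actin, moved most. In the unanchored libraries it stood at 1322 CPM with T12, 1830 with T18 and 1438 with T30, and in the anchored ones at 4672 with T18V, 5022 with T18VN and 5969 with T18VNN (4317, 9516, 3186, 13132, 22503 and 21467 reads). All 3 anchored libraries lay above all 3 unanchored ones, at 5221 ± 671 CPM (SD, n = 3) against 1530 ± 266. In edgeR's quasi-likelihood test across all genes, ACTG1 rose 3.03-fold with an anchor (log2 fold change 1.60, SE 0.26, Benjamini-Hochberg adjusted p = 0.0154). It was the 1 member of 9 called, beside 1.35% of all genes called in either direction (0.781% higher, 0.569% lower). The call was lost without 3 of the 6 libraries: without T12, T30 or T18VNN in turn, the edgeR adjusted p was 0.0533, 0.0659 and 0.0756, with log2 fold changes of 1.47 to 1.74 over all 6 leave-outs. Its highest level was 4.52-fold its lowest, and 79.9% of tested genes had a smaller SD.

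ACTB, the beta cytoplasmic actin, had another order of libraries. T12, T18 and T30 gave 56.6, 66.1 and 80.8 CPM of ACTB, and T18V, T18VN and T18VNN gave 45.9, 139 and 149 CPM (185, 344, 179, 129, 622 and 537 reads). T18VN and T18VNN were high and T18V was the lowest of the 6, so the classes overlapped. Its anchored mean of 111 ± 56.9 CPM (SD, n = 3) against 67.9 ± 12.2 gave a log2 difference of 0.54 (SE 0.43, edgeR adjusted p = 0.614), with a 95% interval of 0.755- to 2.78-fold. Between T18 and T18V, which differ by the anchor base, ACTG1 was 2.55 times as high with T18V and ACTB 0.694 times, in 1 library each. The ratio of ACTB to ACTG1 reads ranged from 0.00982 with T18V to 0.0562 with T30. The 2 transcripts share a longest identical stretch of 59 bases, which lies 838 bases from the 3′ end of ACTB and 957 from that of ACTG1.

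GAPDH, the glycolytic dehydrogenase, had the smallest spread among the members over all 6 libraries. With 1 library left out, the SD of log2(CPM + 1) was 0.22 to 0.31 for GAPDH, 0.18 to 0.34 for PPIA and 0.23 to 0.34 for HPRT1. The first place therefore depends on the libraries used. Its level was 590, 543 and 847 CPM with T12, T18 and T30, and 866, 773 and 783 CPM with T18V, T18VN and T18VNN (1926, 2826, 1877, 2433, 3463 and 2817 reads). T30 stood with the anchored libraries, and T12 and T18 were low. The coefficient of variation was 18.4%, the highest level was 1.59-fold the lowest, and 6.23% of tested genes had a smaller SD of log2(CPM + 1) (17.1% of the abundant genes). Anchored and unanchored means of 807 ± 50.8 and 660 ± 164 CPM (SD, n = 3 each) differed by 0.11 on the log2 scale (SE 0.29, edgeR adjusted p = 0.901), with a 95% interval of 0.6998- to 1.67-fold. Within the 3 anchored libraries GAPDH varied 1.12-fold and within the unanchored ones 1.56-fold.

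PPIA, the prolyl isomerase cyclophilin A, stood at 4763, 3757 and 3713 CPM with T12, T18 and T30, and at 3675, 6077 and 3427 CPM with T18V, T18VN and T18VNN (15556, 19541, 8227, 10330, 27229 and 12326 reads). A single library, T18VN, stood above the rest, and the others lay between 3427 and 4763 CPM. Its log2 difference between classes was −0.06 (SE 0.28, edgeR adjusted p = 0.948), with a 95% interval of 0.622- to 1.48-fold. HPRT1, the purine salvage enzyme, was at 72.3, 55.8, 61.8, 50.5, 92.6 and 73.1 CPM in the same order of primers, from 137 to 415 reads. It was also highest with T18VN, and its log2 difference was 0.02 (SE 0.34, edgeR adjusted p = 0.988), with a 95% interval of 0.607- to 1.69-fold. The highest levels of PPIA and HPRT1 were 1.77- and 1.83-fold their lowest, and their classes overlapped.

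EEF1A1, the translation elongation factor, was at 1254, 1313 and 1063 CPM in the unanchored libraries (T12, T18, T30) and at 2128, 1663 and 1642 CPM in the anchored ones (T18V, T18VN, T18VNN; 2355 to 7450 reads). All anchored libraries were above all unanchored ones, yet by a small margin: 1811 ± 275 against 1210 ± 131 CPM (SD, n = 3 each). The difference was not called (log2 0.41, SE 0.26, edgeR adjusted p = 0.490), and its 95% interval was 0.900- to 1.97-fold. The highest level was 2.002-fold the lowest, just outside the 2-fold limit, while HPRT1 at 1.83-fold was the member closest to it from inside.

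YWHAZ, the 14-3-3 zeta adaptor, was at 264, 269 and 249 CPM with the unanchored primers and at 676, 439 and 602 CPM with the anchored ones, in the same order (552 to 2166 reads). Its 3 unanchored libraries lay within 1.08-fold, the closest of any member, and the anchored ones all lay higher, at 572 ± 122 against 260 ± 10.1 CPM (SD, n = 3 each). The 1.95-fold difference (95% interval 1.27 to 3.01) had an unadjusted p of 0.00569 and an adjusted p of 0.127 in edgeR's quasi-likelihood test, so it did not pass. TPT1, the translationally controlled tumor protein, was at 672, 475, 643, 1070, 1028 and 1851 CPM in the same order of primers (1424 to 6658 reads). Its anchored libraries were again all higher, with T18VNN highest. The 1.96-fold difference (95% interval 1.22 to 3.16, log2 0.97, SE 0.31) did not pass either (edgeR adjusted p = 0.161).

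TBP, the TATA-binding protein, was the least read member: 9.80, 14.8 and 8.12 CPM with T12, T18 and T30, and 8.18, 24.1 and 19.5 CPM with T18V, T18VN and T18VNN, from 32, 77, 18, 23, 108 and 70 reads. T18VN and T18VNN were high, T18V was level with T30, and the classes overlapped. The log2 difference of 0.48 (SE 0.55, edgeR adjusted p = 0.742) had a 95% interval of 0.608- to 3.21-fold, the widest of the 9. In ACTB and TBP alike, T18VN and T18VNN lay above every unanchored library and T18V did not. HPRT1 is no clear further case, since T18VNN at 73.1 CPM (263 reads) was nearly level with T12 at 72.3 CPM (236 reads). TMM scaling, with factors of 1.066 for T18VNN and 0.974 for T12, reverses that order.

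Across the list, 4 of 9 members (ACTG1, EEF1A1, YWHAZ and TPT1) had all anchored libraries above all unanchored ones, none had them all below, and the corresponding shares of all tested genes were 16.8% and 6.8%, or 23.6% in either direction. The median log2 difference was 0.48 for the members and −0.00 for all genes tested. Together the members held 0.810 to 0.900% of gene reads with unanchored primers and 1.32 to 1.53% with anchored ones. Within the unanchored class 9 of 9 members stayed within 2-fold (44.7% of tested genes did), and within the anchored class 7 of 9 did (52% of tested genes), with ACTB at 3.25-fold and TBP at 2.95-fold outside. None of these shares was matched to the members for abundance. Over all 6 libraries the 2-fold share was 14% of tested and 34.4% of abundant genes. No such share of abundant genes was taken within a class, so whether the within-class counts set the members apart was not tested. The class difference also depends on the denominator: scaled to the library total in place of reads on genes, 6 members were called higher with edgeR (ACTB, ACTG1, GAPDH, EEF1A1, YWHAZ and TPT1), beside 19.6% of all genes tested on that scale, where the median of all genes itself shifted by 1.08 on the log2 scale. Library totals, the share of reads on genes and the class of primer moved together across these libraries, and their parts in the result cannot be told apart. Counts of reads on genes overlapped between the classes, at 2215948 to 5200792 with unanchored and 2810924 to 4480927 with anchored primers.

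**Figure D2:**
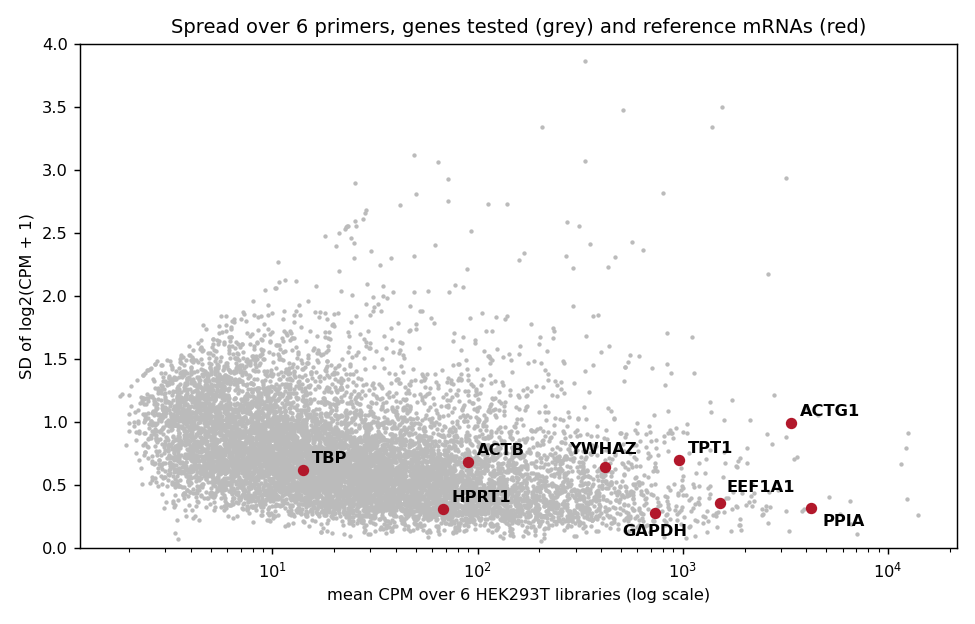
SD of log2(CPM + 1) over the 6 HEK293T libraries against mean CPM (log axis) for the 10887 genes tested in grey, with the 9 reference mRNAs marked and named; 2 genes lie above the top of the axis at 4. GAPDH, PPIA and HPRT1 sit at SDs of 0.28 to 0.31 and ACTG1 at 0.99.

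Some genes that are no common references varied far less over the same primers. Among genes of at least 100 CPM, the 3 with the smallest SD of log2(CPM + 1) were MPRIP at 0.06 (190 to 212 CPM), FN3KRP at 0.08 (123 to 140 CPM) and JARID2 at 0.08 (195 to 226 CPM). They were chosen for that low spread, so these values are a description. MPRIP's SD was 0.13 with TMM-scaled CPM and 0.16 with RLE, above those of FN3KRP and JARID2 (0.09 each with TMM and 0.11 each with RLE), and 0.57 with library totals. In the A549 library, which the choice did not use, MPRIP was 1.21 times, FN3KRP 0.659 times and JARID2 0.577 times its HEK293T T12 level.

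In practice a reference divides another gene, so the 36 ratios between the members' reads were followed next. A ratio within 1 library is free of library scaling, and here it is read only for its change between libraries, since it is not corrected for length. The median SD of the log2 ratio over the 6 HEK293T libraries was 0.66, and 5 of 36 ratios stayed within 2-fold, beside 3.53% of the ratios between any 2 of 8889 genes. Those genes were not matched to the members for abundance. The steadiest was PPIA to HPRT1, which was 65.9, 67.4 and 60.1 with the unanchored and 72.7, 65.6 and 46.9 with the anchored primers, a 1.55-fold range. EEF1A1 to YWHAZ had a 1.79-fold range, GAPDH to PPIA 1.90-fold, YWHAZ to TPT1 1.94-fold and GAPDH to EEF1A1 1.96-fold. At the other end, ACTG1 to PPIA ran from 0.278 with T12 to 1.74 with T18VNN, a 6.28-fold range. ACTG1 to GAPDH was 2.24, 3.37 and 1.70 with T12, T18 and T30 and 5.40, 6.50 and 7.62 with T18V, T18VN and T18VNN. Each anchored value of this ratio exceeded each unanchored one. Averaged over its 8 ratios, the SD was smallest for EEF1A1 at 0.55, HPRT1 at 0.56 and GAPDH at 0.58, and largest for TBP at 0.67, ACTB at 0.68 and ACTG1 at 0.78.

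**Figure D3:**
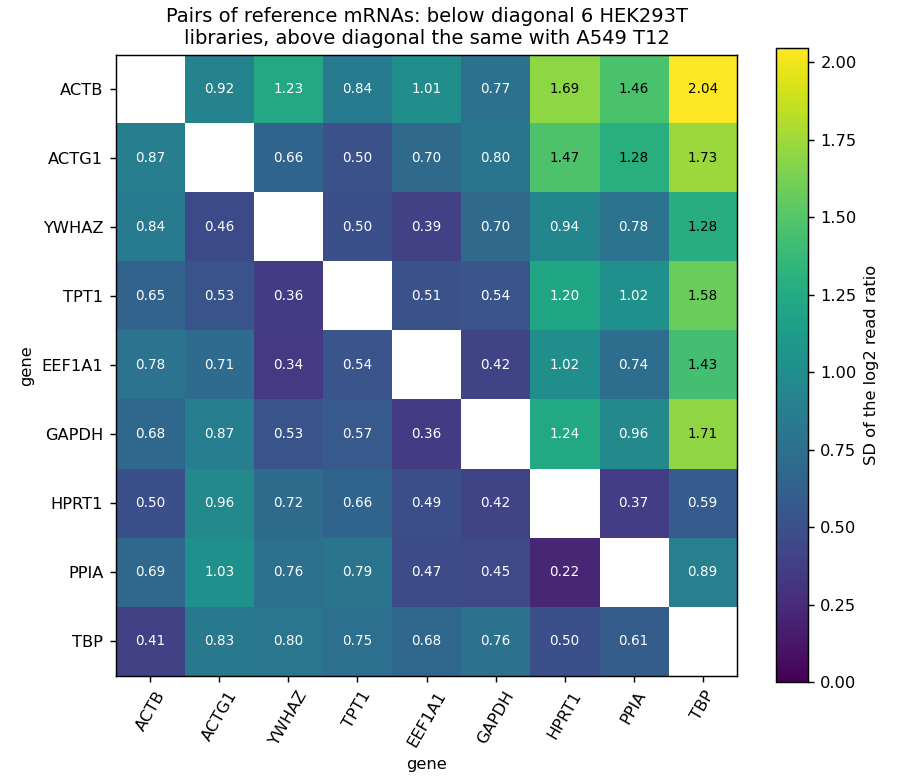
SD of the log2 ratio of reads for each of the 36 pairs of reference mRNAs, below the diagonal over the 6 HEK293T libraries and above it with the A549 T12 library added; lighter colours stand for larger SDs, which are printed in the cells. PPIA to HPRT1 is lowest in HEK293T at 0.22 and ACTG1 to PPIA highest at 1.03; with A549 added, ACTB to TBP reaches 2.04.

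The second comparison set the cell lines side by side with the same T12 primer, in 1 library each, so there is no replicate check and no test. Intervals below are 95% exact conditional binomial intervals of the ratio and cover counting error only. In bulk RNA, fewer cells with a transcript and less transcript per cell cannot be told apart. The levels of 7 of 9 members differed 2-fold or more, 4 being higher in A549 and 3 lower, against 60.2% of the 10145 genes whose better-covered library held 20 reads or more (31% higher, 29.2% lower). The median absolute log2 difference was 1.73 for the members and 1.30 for all genes. A 2-fold difference was thus also the more common outcome among genes at large.

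Both actins, GAPDH and TPT1 were the members at least 2-fold higher in A549. ACTB was at 505 CPM in A549 (757 reads) and 56.6 in HEK293T T12 (185 reads), a ratio of 8.92 (7.59 to 10.5), and the A549 level was 3.38-fold the highest of the 6 HEK293T libraries. ACTG1 was at 7664 against 1322 CPM, a ratio of 5.80 (5.60 to 6.01), which was 1.28-fold above the highest HEK293T library. GAPDH was at 1958 against 590 CPM, a ratio of 3.32 (3.13 to 3.52), and stood 2.26-fold above its highest HEK293T library. TPT1 was at 1822 against 672 CPM, a ratio of 2.71 (2.56 to 2.87). Its A549 level lay inside the HEK293T range, just under the 1851 CPM of T18VNN.

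PPIA, HPRT1 and TBP were the members at least 2-fold lower in A549. PPIA was at 2298 against 4763 CPM, 2.07-fold lower (ratio 0.482, 0.465 to 0.501), and HPRT1 at 20.7 against 72.3 CPM, 3.49-fold lower (ratio 0.286, 0.190 to 0.417). TBP was at 2.00 against 9.80 CPM, from 3 and 32 reads, 4.89-fold lower with an interval of 1.53- to 24.97-fold. All 3 lay below every HEK293T library, by 1.49-fold for PPIA, 2.44-fold for HPRT1 and 4.06-fold for TBP. The 2 members within 2-fold were EEF1A1, at 2452 against 1254 CPM (ratio 1.96, 1.87 to 2.05), and YWHAZ, at 406 against 264 CPM (ratio 1.54, 1.39 to 1.71). In all, 7 of 9 members lay outside the range of the 6 HEK293T libraries, as did 62.5% of the genes counted, and YWHAZ and TPT1 lay inside.

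**Figure D4:**
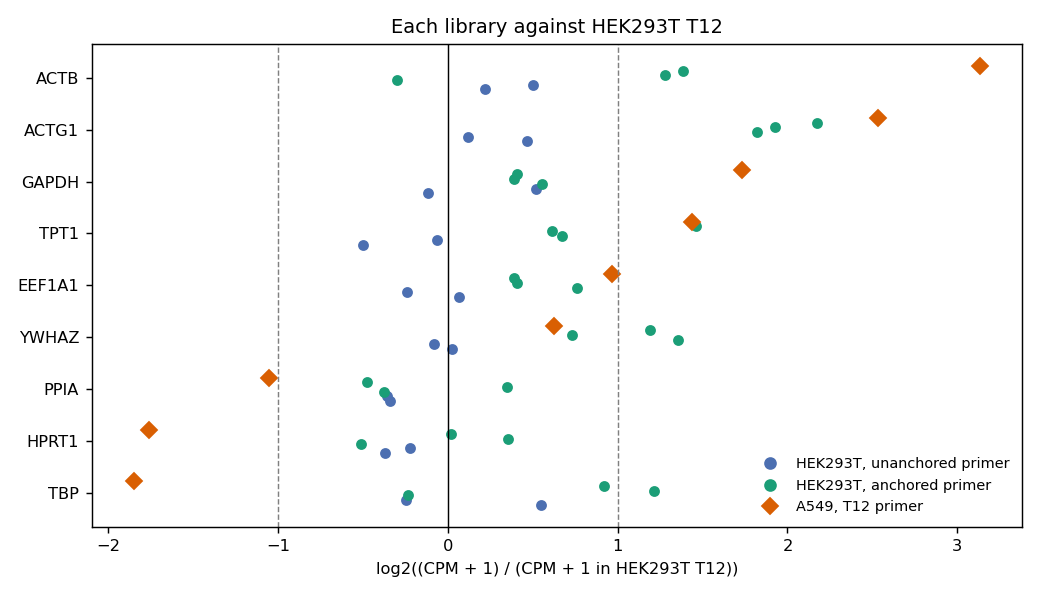
Difference in log2(CPM + 1) of each reference mRNA from its HEK293T T12 level, with 1 point per library: HEK293T with the other unanchored primers (blue circles) and the anchored primers (green circles), and A549 T12 (orange diamonds); dashed lines mark 2-fold. A549 runs from 3.13 for ACTB to −1.85 for TBP, and the anchored points of ACTG1, EEF1A1, YWHAZ and TPT1 all lie to the right of their unanchored points.

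Of the 5 ratios that stayed within 2-fold over the HEK293T primers, 4 differed less than 2-fold between A549 and HEK293T T12. The other, GAPDH to PPIA, differed more. In A549 all 5 lay outside their range over the HEK293T libraries. Over all 36 ratios, 27 differed at least 2-fold and 9 at least 10-fold, beside 70.3% and 22.4% of the ratios between any 2 of 8889 genes with reads in every library. The A549 ratio lay outside the HEK293T range for 30 of the 36, beside 59.9% of those gene pairs. These shares are a description, since the 36 ratios share 9 genes. ACTB to TBP, with an SD of 0.41 over the HEK293T libraries, was 43.6 times as high in A549, a value that rests on 3 TBP reads (95% exact conditional interval 13.4 to 224, counting error only), and 4 of the 9 ratios that differed at least 10-fold hold TBP. GAPDH to PPIA was 0.124 to 0.236 in HEK293T and 0.852 in A549, 6.88-fold its T12 value. PPIA to HPRT1 went from at most 72.7 in HEK293T to 111 in A549. ACTB to GAPDH, the most familiar pair, was 0.0961 with T12 in HEK293T and 0.258 in A549, a 2.69-fold difference. GAPDH to EEF1A1 was 0.407 to 0.797 in HEK293T and, just above that range, 0.799 in A549. Averaged over 8 ratios with A549 added, EEF1A1 kept the smallest mean SD at 0.78, followed by YWHAZ at 0.81, and TBP had the largest at 1.41.

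The choice of HEK293T library mattered for these counts and for single members. Against T18V or T18VNN in place of T12, 4 members passed the 2-fold limit, 2 upward and 2 downward in each case. Over the 6 HEK293T libraries as reference, the log2 difference of A549 ran from 0.36 to 2.53 for ACTG1, from −0.02 to 1.94 for TPT1, from −0.73 to 0.70 for YWHAZ and from −1.40 to −0.58 for PPIA. YWHAZ was higher in A549 than in each unanchored library and lower than in each anchored one. ACTB and GAPDH were at least 2-fold higher, and HPRT1 and TBP at least 2-fold lower, against each of the 6. Scaled to the library total, the ratios to T12 were 6.96 for ACTB, 4.52 for ACTG1, 2.59 for GAPDH, 2.11 for TPT1, 1.53 for EEF1A1, 1.202 for YWHAZ, 0.376 for PPIA, 0.223 for HPRT1 and 0.159 for TBP, with the same directions.

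The relatives and pathway partners of the members were then read from lists, with A549 set against HEK293T T12 and, for named genes that moved, against the other HEK293T libraries too. Of the other actins, 1 of 5 passed the filter on low counts, the smooth muscle actin ACTA2, whose classes did not differ beyond their spread (log2 −0.19, SE 0.55, edgeR adjusted p = 0.915). ACTA2 was at 108 CPM in A549 and 69.5 in HEK293T T12, inside its HEK293T range of 22.4 to 127. None of the 6 other elongation factors was called between primers. EEF1A2, the tissue-restricted relative of EEF1A1, was at 304 CPM in A549 against 23.3 with T12 in HEK293T (456 and 76 reads), a 13.1-fold difference. Over the 6 HEK293T libraries its log2 difference ran from 2.34 to 3.70. The other 5 of the list differed less than 2-fold from T12. The lowest was EEF1G at a ratio of 0.599, which changed direction with the HEK293T library (log2 −0.73 to 0.49).

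Of 16 other glycolysis genes, 10 stayed within 2-fold over the HEK293T primers, and 1 was called, higher with an anchor. That gene was ALDOA, the aldolase of glycolysis (log2 1.57, SE 0.31, edgeR adjusted p = 0.0388), whose call was lost in 4 of 6 leave-outs, without T12 (0.0891), T30 (0.127), T18V (0.109) or T18VNN (0.159). In A549, 7 of 16 exceeded their HEK293T T12 level 2-fold or more and 2 fell short of it by as much. The neuronal enolase ENO2 was 10.9-fold higher, at 36.7 against 3.37 CPM (55 against 11 reads), and the hexokinase HK2 16.1-fold lower (3 against 105 reads, interval 5.35 to 79.1). GAPDH, at a ratio of 3.32, lay between these extremes. Over the 6 HEK293T libraries as reference, the log2 difference ran from 1.98 to 3.32 for ENO2 and from −3.99 to −2.96 for HK2.

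None of the 12 other cyclophilins was called between primers. Nor was any of the 14 tested genes of the TFIID list, which holds TAFs, the partners of TBP, and the TBP relative TBPL1. In A549, 3 of 12 cyclophilins were at least 2-fold higher and 5 lower, from PPIB, the cyclophilin of the endoplasmic reticulum, at a ratio of 5.52 to the spliceosomal PPIH, 6.03-fold lower. The PPIB value rests on its 45 reads with T12: against the other 5 HEK293T libraries the log2 difference was 0.12 to 1.12, and PPIH ran from −3.82 to −1.06 over the 6. On the TFIID list, 12 genes were counted, 5 higher and 2 lower, with TAF7 at a ratio of 5.61 and TAF5 3.90-fold lower. The 5 higher genes include TBPL1, with 17 reads in HEK293T T12 and 20 in A549. Over the 6 HEK293T libraries TAF7 ran from 1.44 to 2.47 on the log2 scale and TAF5 from −1.94 to −0.35. Of 14 purine genes tested, GART was called higher with an anchor (log2 2.13, SE 0.37, edgeR adjusted p = 0.0195). The GART call was lost without T30 (0.0679), T18V (0.0736) or T18VNN (0.0866), and with its longest transcript in place of the most read one the log2 difference was 0.44 (adjusted p = 0.634). In A549, 4 of 14 purine genes were at least 2-fold lower and none higher, with IMPDH2, the guanine nucleotide synthesis enzyme, 7.41-fold lower and its relative IMPDH1 at a ratio of 1.11. Against the anchored libraries IMPDH1 was also lower (log2 −1.46 with T18V, −1.18 with T18VN and −1.71 with T18VNN), and against T18VNN IMPDH2 was at −1.45.

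Among the 14-3-3 proteins related to YWHAZ, none of 5 tested was called, and YWHAG came nearest (log2 1.72, SE 0.37, edgeR adjusted p = 0.0509). YWHAG was 5.03-fold higher in A549 than in HEK293T T12, yet lower than in HEK293T T18V by 0.43 on the log2 scale, and YWHAH was 5.05-fold lower. Of 20 other genes used as PCR references, 1 was called between primers: ATP5F1B, the beta subunit of ATP synthase (log2 1.41, SE 0.29, edgeR adjusted p = 0.0419), a call lost in 5 of 6 leave-outs, where the edgeR adjusted p reached 0.174, and kept without T18VN. Of these 20, 5 stayed within 2-fold over the HEK293T primers, and 9 were 2-fold or more away from HEK293T T12 in A549, 4 upward and 5 downward. The extremes were B2M, the light chain of MHC class I, 6.40-fold higher, and POLR2A, the largest RNA polymerase II subunit, 24.2-fold lower (58.7 against 1423 CPM). Of 11 references proposed from RNA-seq surveys, none was called, 4 stayed within 2-fold and 4 differed at least 2-fold in A549, from EMC7 at a ratio of 6.31 to PSMB4, 4.61-fold lower. Over the 6 HEK293T libraries the log2 difference ran from 1.84 to 3.23 for B2M and from −5.60 to −4.58 for POLR2A. It ran from 2.37 to 3.53 for EMC7, from −2.76 to −1.75 for PSMB4 and from −2.43 to −1.83 for YWHAH.

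For each member the gene with the most similar pattern over the 7 libraries was found among 3313 candidates, by the SD of the difference in log2(CPM + 1). The closest match was PSPH for YWHAZ at 0.09, followed by USP19 for PPIA at 0.13, C17orf75 for EEF1A1 at 0.17, POGK for HPRT1 at 0.17 and RSL1D1 for TPT1 at 0.20. The others were TNFSF9 for GAPDH at 0.22, and EIF4H for ACTB, PDIA4 for ACTG1 and KIF18B for TBP, each at 0.26. These are descriptions over 7 libraries and were picked as minima.

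The genomic positions of the counted transcripts are given on hg19. The plus-strand members are GAPDH at chr12:6643571-6647541, PPIA at chr7:44836235-44842722, TBP at chr6:170863421-170881958 and HPRT1 at chrX:133594175-133634698. The minus-strand members are ACTB at chr7:5566779-5570232, ACTG1 at chr17:79476997-79479892, EEF1A1 at chr6:74225473-74230755, YWHAZ at chr8:101930804-101965221 and TPT1 at chr13:45907606-45915419. Of the 9, only TPT1 overlapped another gene with a row, the small nucleolar RNA gene SNORA31 on the same strand, which had 7 reads with T18V and 0 in the other libraries.

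Reads of several members could be shared with processed pseudogenes, and how a read that matched more than 1 place was treated is not given in the sources used here. Of all 50-base stretches in the transcript, 29.3% of those of EEF1A1, 20.9% of GAPDH, 18.96% of PPIA, 17.2% of YWHAZ, 10.9% of ACTB, 4.03% of ACTG1, 3.67% of TPT1 and 1.70% of TBP also occurred in another GENCODE gene, and none of HPRT1. In the last 500 bases this held for GAPDH alone, at 11.1%. These shares are of the matched GENCODE transcripts, which for ACTG1, GAPDH, PPIA, YWHAZ and EEF1A1 differ from the counted entry. In the count tables, 4 pseudogene rows of ACTG1 held 355 reads over the 7 libraries, 0.415% of the 85603 reads on ACTG1, with most on ACTG1P25 (213 reads). For PPIA, 7 rows of copies held 1 read beside 96652 on PPIA itself, but PPIAP22, which shared most stretches with it, had no row among them. EEF1A1, GAPDH, YWHAZ and ACTB had 0 rows of copies, so reads shared with their copies could not be checked.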

How the data were processed

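Read counts per RefSeq transcript, and FPKM, were deposited by the authors for 7 libraries; per the file headers the tables also hold the transcript size and FPM, a deposited RPM value (reads scaled to the library total). The submitters' processing notes name FastQC 0.11.8, cutadapt 2.10, Trimmomatic 0.39, HISAT2 2.2.1, SAMtools and the build GRCh37/hg19; the counter, annotation release, use of strand and treatment of reads with several matches are not given in the sources used here. Gene body coverage was deposited by the authors as a signal per percentile of transcript length. Transcripts were mapped to symbols through the RefSeq gene table (60133 of 61177 rows, 98.3%), and the row with most reads was kept per gene. Where rows tied, the first by name was kept. The intervals cover the counting error of reads only and treat each read as independent. The reads carry no molecular identifiers, so copies of the same molecule could not be removed and the intervals may be too narrow. A level of 3 reads, the detection floor, was 0.577 CPM in the deepest library and 2.00 CPM in A549.

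T18V, T18VN and T18VNN were tested against T12, T18 and T30 in edgeR 4.0.16 under R 4.3.3. Its quasi-likelihood test followed TMM scaling and filterByExpr, with Benjamini-Hochberg adjustment at 0.05 over 10887 genes. The procedure was also run on counts simulated from the means and dispersion of these data, and that outcome is not reported here. Standard errors are the log2 fold change divided by the square root of F. Spread was taken on log2(CPM + 1). A549 against HEK293T T12 has no test. Alternatives were RLE, library totals, DESeq2 1.42.0, no filter, the longest transcript, TMM-scaled CPM, a pseudocount of 0.5, other HEK293T reference libraries and each library left out. Named genes were all members, list genes called between primers, list extremes in A549 with 50 or more reads in either line, each member's nearest pattern (mean of at least 50 CPM), the 3 steadiest genes of at least 100 CPM, and pseudogenes named after a member. The members and lists were chosen with earlier results of these data known. The poly(T) length files were not used here.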

Additional observations from a re-analysis of the deposited data

How the results depend on the processing

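No paired analysis was possible because gene counts exist for replicate 1 of HEK293T T12 and replicate 2 of A549 T12, which share no number, and the other primers have 1 library each. Genes called between primer classes numbered 147, against 2260 with library totals, 583 with DESeq2, 556 without a filter on low counts and 45 to 111 with 1 library left out. Members called numbered 1, against 6 with library totals and 0 to 1 with 1 library left out. With library totals, 0 members stayed within 2-fold over the HEK293T primers and the members' median SD was 0.90. With TMM-scaled CPM, RLE or the longest transcript row, 4 stayed within 2-fold, and with 1 library left out, 3 to 4 did. Against T18V or T18VNN as the HEK293T reference, 4 and 4 members differed at least 2-fold in A549. The median SD of the members' ratios was 0.93 with A549 added. Log2 differences near 0 changed sign: GAPDH (−0.018 to 0.36 with 1 library left out), PPIA (1.00 with library totals, −0.37 to 0.063 with 1 library left out) and HPRT1 (−0.026 with RLE, −0.030 with DESeq2, −0.21 to 0.18 with 1 library left out). The A549 difference changed sign with the HEK293T reference for TPT1 (−0.023 against T18VNN), YWHAG (−0.43 against T18V), YWHAZ (0.62 against T12, −0.73 against T18V, −0.11 against T18VN, −0.57 against T18VNN) and, all under 2-fold against T12, EEF1G, ACTA2 and IMPDH1. The cause was not tested. Depth limits TBP most, with 3 reads in A549.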
